A study of Mus musculus with 6 samples.

Results

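The genes described here are 54 lysosomal genes: 29 enzymes and soluble co-factors of the lysosome's interior, 8 proteins of its membrane, 15 subunits and accessory proteins of its proton pump, and the transcription factors Tfeb and Tfe3. They were taken as a list of gene symbols matched to Entrez gene IDs, a list drawn up with earlier results of these data known. All 54 were among the 27179 genes of the count table. RNA was sequenced from a mouse acute myeloid leukemia labelled A/E9a;NRASG12D. The label stands for a splice form of the AML1-ETO (RUNX1-RUNX1T1) fusion together with mutant NRAS. All 6 libraries came from this leukemia in C57BL/6 mice: 3 after vehicle and 3 after panobinostat, an inhibitor of histone deacetylases, each given for 3 days. GFP-positive cells that excluded propidium iodide were sorted from the spleen in both groups. The sources used here do not give the number of leukemia clones, the age of the mice or the dose. Nor do the labels say whether each library is a separate mouse, so p-values below measure the spread between libraries, which may be technical.

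Lysosomes are acidic organelles in which proteins, glycans, nucleic acids and lipids are broken down. The vacuolar ATPase (V-ATPase), a rotary pump with a membrane-embedded V0 sector and a cytosolic V1 sector that hydrolyses ATP, makes the interior acidic, and heavily glycosylated membrane proteins line it. Tfeb and Tfe3 are basic helix-loop-helix factors of the MiT family that can move to the nucleus when mTORC1 is inactive and bind CLEAR elements, E-box-like sequences in the promoters of many lysosomal genes. In myeloid cells lysosomal proteins also serve antigen processing and secretory granules.

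Total counts ranged from 25794869 to 32571961 per library, which makes 1 count equal to 0.0307 to 0.0388 CPM before the TMM library factors that scale all levels below (CPM is the count per total, times a constant). Libraries are called by the leading number of their count column: 2, 3 and 4 for vehicle and 1, 5 and 6 for panobinostat. The leukemia cells carried Gata1, an erythroid and megakaryocyte factor, at 246 to 262 CPM after vehicle and 315 to 441 CPM after panobinostat. Kit, a progenitor receptor, was at 210.1 to 221 CPM after vehicle and 163 to 321 CPM after panobinostat. Ptprc, which codes for CD45 of nucleated blood cells, was at 1.77 to 4.43 CPM over the 6 libraries. Panobinostat library 1 stood apart from the other treated libraries in its erythroid transcripts, which summed over 13 marker genes to 55055 CPM, against 27578 and 25121 CPM in libraries 5 and 6. In bulk RNA, fewer cells of a type and less RNA per cell cannot be told apart.

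Lysosomal transcripts were, as a group, more often higher than lower after panobinostat, and the change was uneven. Of the 51 members abundant enough to test, 19 rose, 2 fell and 30 did not pass edgeR's quasi-likelihood test at an adjusted p under 0.05. The share that rose was 37.3%, against 11.3% of the 12916 genes tested, and the share that fell was 3.92%, against 9.72%. Calls in either direction made up 21.0% of all tested genes. The median log2 fold change was 0.30 over the members and 0.01 over all tested genes. In 24 members every panobinostat library lay above every vehicle library and in 6 every one lay below, against 21.9% and 22.7% of all tested genes. Most changes were small: only Cd63, Smpd1 and Naglu were called with at least a 2-fold rise. With scaling by library size alone, 14 members were higher and 3 lower, against 8.79% and 16% of all genes. Higher calls then made up 35.5% of all calls over all genes, against 53.8% with TMM. The number of higher members also depended on single libraries: it was 4, 9 and 3 when vehicle library 2, 3 or 4 was left out, while 3.28%, 5.64% and 2.29% of all genes were higher by edgeR's test.

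Calls were spread over the classes. Among the enzymes and co-factors of the interior 8 of 27 tested genes rose and 2 fell, with a median log2 fold change of 0.22. Of 7 tested membrane proteins 4 rose, and of 15 pump genes 6 rose. No membrane protein or pump gene fell by edgeR's test. At an unadjusted p under 0.05 there were 0 lower membrane proteins and 1 lower pump gene, Atp6ap2, and DESeq2 and limma-voom called 0 lower in each class. The difference between classes was not tested.

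**Figure D1:**
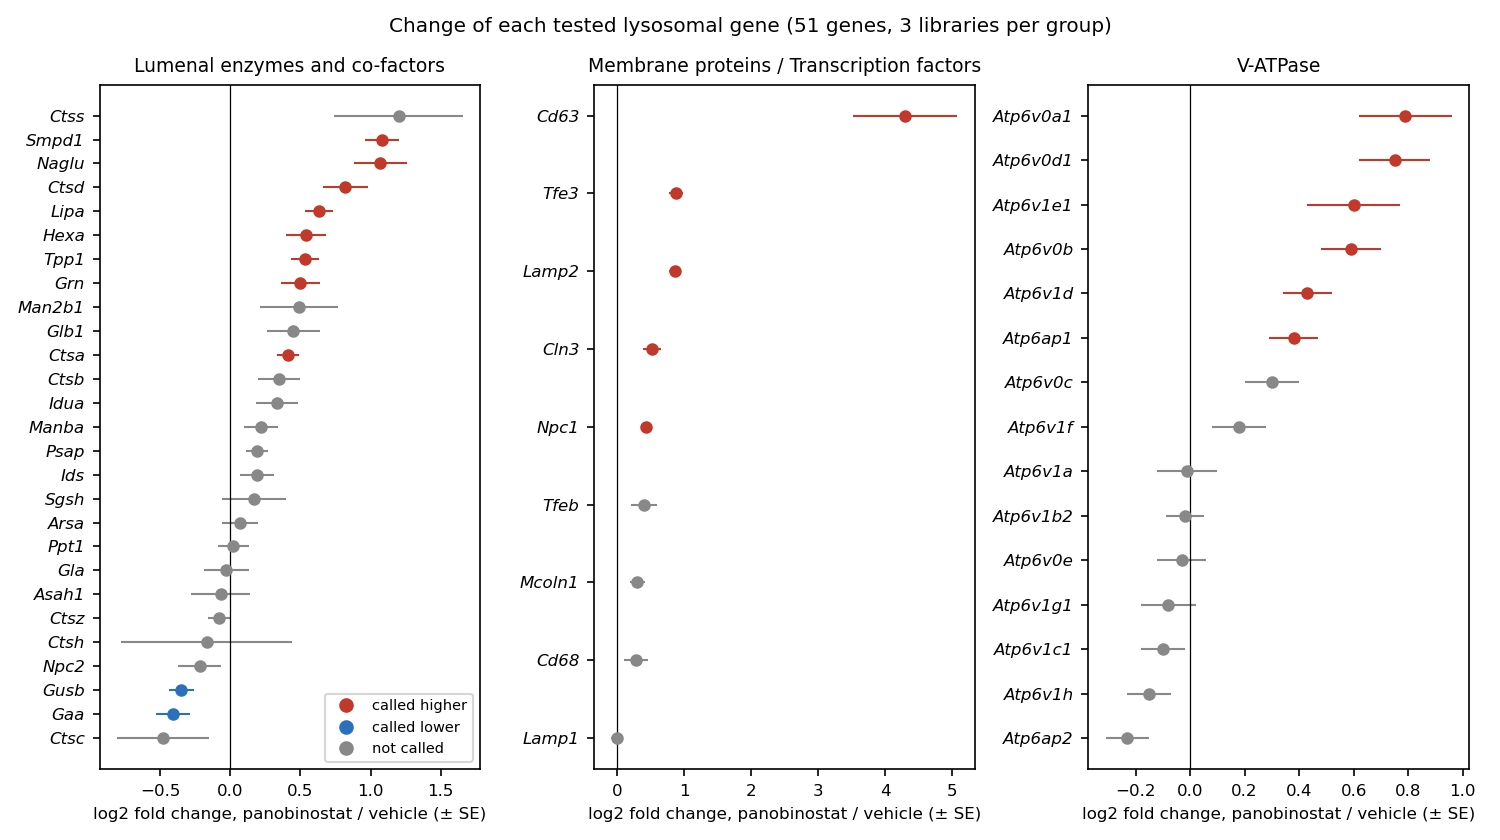
Log2 fold change of panobinostat over vehicle (x axis, with a scale for each panel) for the 51 tested members in 3 panels by class, with bars of 1 standard error from edgeR. Red points were called higher, blue points (Gusb and Gaa) lower and grey points not called; Cd63 lies apart at 4.30.

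Taken by their sum, the 54 genes used 0.43%, 0.443% and 0.434% of all counts after vehicle (libraries 2, 3 and 4) and 0.517%, 0.529% and 0.494% after panobinostat (libraries 1, 5 and 6). The treated libraries were all above the vehicle libraries in the sum over all members. The same held for the interior enzymes (2233, 2358 and 2306 CPM against 2991, 3112 and 2781 CPM) and the pump (1274, 1312 and 1311 CPM against 1707, 1591 and 1473 CPM). Membrane proteins summed to 542, 556 and 539.8 CPM after vehicle and 677.5, 697 and 653 CPM after panobinostat.

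Per kilobase of exon, the members spanned a wide range of levels in vehicle cells. Highest were Ctsd at 169 CPM per kb, Lamp1 at 151, and the V0 genes Atp6v0b at 151 and Atp6v0c at 121 CPM per kb. The next were Ctsz at 102 and Psap, the precursor of the saposins that help sphingolipid hydrolases, at 86.2 CPM per kb. At the other end were Ctsl at 0.0221, Scarb2 at 0.0576, Arsb at 0.062, Ctsh at 0.276 and Cd63 at 0.286 CPM per kb, all with a vehicle mean under 1 CPM. Ctsl, Arsb and Scarb2 did not reach the abundance filter and were not tested. They code for a cathepsin, an arylsulfatase and a membrane protein of the lysosome. Their levels were 0.0946 to 0.359, 0.206 to 0.522 and 0.206 to 0.323 CPM over the 6 libraries.

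The comparison was read first for the transcription factors. Tfe3 (Entrez 209446, chrX:7762530-7775202, mm10) was at 51.5, 54.6 and 48.7 CPM after vehicle and at 104, 94.0 and 88.0 CPM after panobinostat, given here and below in the order of libraries 2, 3 and 4 and libraries 1, 5 and 6. All treated libraries were well above all vehicle libraries, a rise of 1.85-fold (log2 fold change 0.88 ± 0.10 SE, edgeR adjusted p 0.0042), and the call held without any one library. Tfeb (Entrez 21425) was lower per length, at a vehicle mean of 1.84 CPM per kb against 14.3 CPM per kb for Tfe3. Its levels were 8.56, 6.35 and 7.27 CPM against 7.99, 10.5 and 10.8 CPM. Its groups overlapped through panobinostat library 1, and its log2 fold change of 0.40 ± 0.19 (SE) did not pass (edgeR adjusted p 0.17, 0.047 without that library). Of the other MiT factors, Mitf was at 9.27, 19.4 and 12.5 CPM against 10.5, 33.8 and 23.0 CPM (edgeR adjusted p 0.27), with the groups overlapping. Tfec did not exceed 0.137 CPM in any library and was not tested.

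The promoters of members were read for the core of the element that these factors bind. Windows from 250 bases before to 50 bases after the start site were taken from RefSeq (GRCm38.p6) for the 46 members that had one, and searched on both strands for TCACGTG, the core of the CLEAR element. It was present in 15 of the 46 genes (32.6%), against 671 of 9684 tested genes with a window (6.93%). Counted by window, it was in 27.8% of member windows and 3.77% of all 32851. The shorter E-box CACGTG, which every TCACGTG contains, was in 34.8% of member genes and 11.7% of tested genes. The full CLEAR consensus stood only in the window of Cln3 among members, and in 0.326% of all windows. The 46 genes include Ctsl, Arsb and Scarb2, which were not tested. CLEAR elements lie in the promoters of many lysosomal genes, so the excess belongs to the choice of genes and says nothing about panobinostat. A match describes the letters of the window and does not show that a factor binds there.

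Members rose both with and without the core in their window. Of the 15 genes with it, 6 rose (Ctsa, Ctsd, Naglu, Cln3, Atp6v0b and Atp6v0d1), Gaa fell and 8 were not called, with a median log2 fold change of 0.30. Of the 28 tested genes with a window but no core, 12 rose and 1 fell, with a median of 0.39. The sequences below, from RefSeq (GRCm38.p6), are the bases just before the gene, 5′ to 3′ on the gene's strand, with the core on either strand in capitals. Ctsd at chr7:142387828-142388077 (minus strand), Atp6v0b at chr4:117887334-117887579 (minus strand) and Naglu at chr11:101069844-101070089 (plus strand) are shown because they hold the core and rose. Lamp1 at chr8:13158911-13159160 (plus strand) and Mcoln1 at chr8:3500269-3500518 (plus strand) are shown because they hold it and were not called. Smpd1 at chr7:105554110-105554359 (plus strand) and Lamp2 at chrX:38456461-38456710 (minus strand) are shown because they rose and do not hold it.
Ctsd: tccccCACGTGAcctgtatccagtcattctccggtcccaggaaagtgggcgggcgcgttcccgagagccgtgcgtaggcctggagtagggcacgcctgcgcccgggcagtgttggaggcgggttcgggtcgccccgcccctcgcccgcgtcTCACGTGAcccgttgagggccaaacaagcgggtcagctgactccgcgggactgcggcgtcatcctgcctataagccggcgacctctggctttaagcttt
Atp6v0b: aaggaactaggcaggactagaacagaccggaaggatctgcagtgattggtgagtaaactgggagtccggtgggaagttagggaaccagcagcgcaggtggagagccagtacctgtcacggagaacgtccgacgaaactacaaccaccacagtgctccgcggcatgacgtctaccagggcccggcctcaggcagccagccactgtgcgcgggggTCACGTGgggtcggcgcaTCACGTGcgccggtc
Naglu: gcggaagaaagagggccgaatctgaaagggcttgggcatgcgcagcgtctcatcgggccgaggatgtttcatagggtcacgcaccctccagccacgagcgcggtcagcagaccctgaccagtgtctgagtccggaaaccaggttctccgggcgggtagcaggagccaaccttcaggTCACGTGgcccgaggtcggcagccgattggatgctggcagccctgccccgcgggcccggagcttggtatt
Lamp1: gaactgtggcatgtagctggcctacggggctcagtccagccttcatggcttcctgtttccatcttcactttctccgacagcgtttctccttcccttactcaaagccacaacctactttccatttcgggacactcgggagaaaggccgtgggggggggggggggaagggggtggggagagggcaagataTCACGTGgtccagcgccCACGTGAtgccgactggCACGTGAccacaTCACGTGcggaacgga
Mcoln1: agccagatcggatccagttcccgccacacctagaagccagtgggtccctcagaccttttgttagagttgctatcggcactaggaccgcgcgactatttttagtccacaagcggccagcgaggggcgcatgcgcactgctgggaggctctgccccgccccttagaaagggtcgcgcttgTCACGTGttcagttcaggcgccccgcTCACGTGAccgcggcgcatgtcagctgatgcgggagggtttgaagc
Smpd1: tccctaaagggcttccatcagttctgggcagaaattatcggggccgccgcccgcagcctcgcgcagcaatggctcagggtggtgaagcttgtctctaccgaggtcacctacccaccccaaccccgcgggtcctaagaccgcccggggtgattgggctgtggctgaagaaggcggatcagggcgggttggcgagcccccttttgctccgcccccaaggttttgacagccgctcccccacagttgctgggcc
Lamp2: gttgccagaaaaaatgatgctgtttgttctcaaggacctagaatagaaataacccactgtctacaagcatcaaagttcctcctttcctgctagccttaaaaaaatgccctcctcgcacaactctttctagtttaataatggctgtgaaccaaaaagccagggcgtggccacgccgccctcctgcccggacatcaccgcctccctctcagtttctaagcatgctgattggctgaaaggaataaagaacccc
Lamp1 carries 4 separate stretches of the core close to its start, more than any other sequence shown, and Ctsd, Atp6v0b and Mcoln1 carry 2 each.

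**Figure D2:**
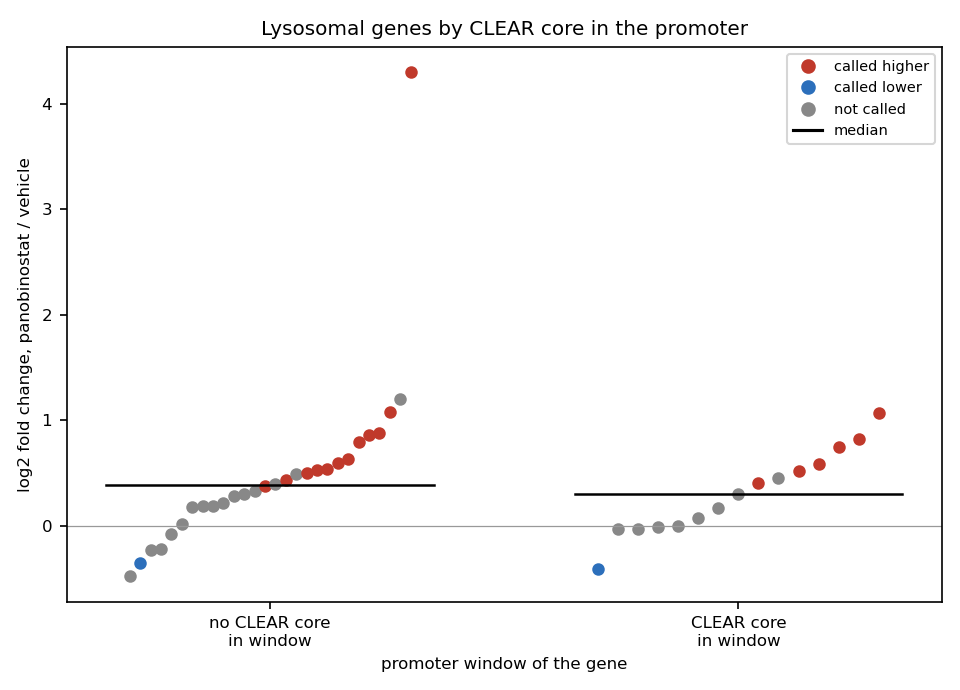
Log2 fold change of panobinostat over vehicle (y axis) for tested members with a promoter window, split by whether the window holds TCACGTG. Each point is a gene, and the lines mark medians of 0.30 with the core and 0.39 without it. The spread is -0.41 to 1.07 with the core and -0.48 to 4.30, the value of Cd63, without it.

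Among proteases of the interior, 3 of 8 tested genes rose and none fell by edgeR's test (0 also at an unadjusted p under 0.05, in DESeq2 and in limma-voom). Cathepsin D (Ctsd, Entrez 13033, chr7:142375910-142387827, mm10), an aspartic protease and the member with the highest level per length, was at 336, 374 and 371 CPM after vehicle and at 802, 572 and 539.5 CPM after panobinostat. All treated libraries were higher, library 1 most of all, and the rise was 1.77-fold (log2 0.82 ± 0.16 SE, edgeR adjusted p 0.015). The annotated gene Gm49369 on the same strand shares 31.5% of its exon bases, and reads there cannot be told apart. Tpp1, a peptidase that trims tripeptides, was at 137, 129 and 137 CPM against 188, 214 and 179 CPM. Cathepsin A (Ctsa), a carboxypeptidase that also protects beta-galactosidase and neuraminidase, was at 100.4, 93.8 and 95.9 CPM against 134, 133 and 119.8 CPM. These were rises of 1.44-fold and 1.33-fold (edgeR adjusted p 0.013 and 0.018), and neither gene's groups overlapped.

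The other cathepsins did not pass. Cathepsin B (Ctsb) was at 297, 302 and 318 CPM against 483, 332 and 355 CPM. Its groups did not overlap, but the treated libraries spread widely and the log2 fold change of 0.35 ± 0.15 (SE) had an edgeR adjusted p of 0.13. Cathepsin S (Ctss), a protease of antigen-presenting cells, was at 0.808, 1.24 and 1.13 CPM against 4.17, 1.86 and 1.29 CPM. The difference rested on panobinostat library 1, since the 2.30-fold change became 1.48-fold without it (edgeR adjusted p 0.11 with all libraries). Cathepsin Z (Ctsz) was at 141.7 to 150.1 CPM against 136.2 to 141.4 CPM (log2 -0.08 ± 0.08 SE). Ctsc, which activates granule serine proteases, and Ctsh had log2 fold changes of -0.48 ± 0.33 and -0.17 ± 0.61 (SE), with overlapping groups.

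Of 4 lipid hydrolases 2 rose, among them the enzyme with the lowest adjusted p. Acid sphingomyelinase (Smpd1, Entrez 20597, chr7:105554360-105558389, mm10) was at 12.4, 11.9 and 12.3 CPM after vehicle and at 28.3, 26.3 and 22.7 CPM after panobinostat. The vehicle libraries were almost equal and every treated library was well above them, a rise of 2.11-fold (log2 1.08 ± 0.12 SE, edgeR adjusted p 0.0042). Lysosomal acid lipase (Lipa, Entrez 16889), which frees cholesterol and fatty acids from lipoprotein lipids, was at 46.0, 44.7 and 43.9 CPM against 65.2, 77.1 and 65.7 CPM. That was a rise of 1.54-fold (log2 0.63 ± 0.10 SE, edgeR adjusted p 0.0086), with no overlap. Acid ceramidase (Asah1), the next enzyme after sphingomyelinase, was at 37.4, 37.3 and 39.0 CPM against 24.2, 45.4 and 38.8 CPM with overlapping groups (log2 -0.07 ± 0.21 SE). Ppt1, a thioesterase for palmitoylated proteins, had a log2 fold change of 0.02 ± 0.11 (SE).

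The glycosidases were split, with 2 of 9 higher and 2 lower. Naglu (Entrez 27419), which removes N-acetylglucosamine from heparan sulfate, was at 4.43, 4.29 and 4.08 CPM against 10.8, 8.87 and 7.25 CPM. It rose 2.1-fold from a low level (log2 1.07 ± 0.19 SE, edgeR adjusted p 0.013). Hexa, the alpha chain of beta-hexosaminidase that degrades GM2 ganglioside, was at 34.3, 39.5 and 37.5 CPM against 47.7, 65.3 and 49.4 CPM, a 1.46-fold rise (edgeR adjusted p 0.035, 0.059 with library-size scaling).

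The enzymes that fell were beta-glucuronidase and acid alpha-glucosidase. Gusb was at 100.5, 114 and 108 CPM against 78.0, 87.4 and 87.1 CPM, 1.28-fold lower (log2 -0.35 ± 0.09 SE, edgeR adjusted p 0.035). Gaa, which degrades glycogen in the lysosome, was at 71.0, 55.5 and 56.0 CPM against 45.5, 45.4 and 46.8 CPM, 1.33-fold lower (log2 -0.41 ± 0.12 SE, edgeR adjusted p 0.046). In both, every treated library lay below every vehicle library. With limma-voom the adjusted p of Gaa was 0.053.

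Glb1 and Man2b1 varied among the treated libraries. Beta-galactosidase (Glb1) was at 56.7, 62.7 and 52.9 CPM against 60.8, 102 and 73.3 CPM. Man2b1, an alpha-mannosidase, was at 255, 338 and 292 CPM against 245, 574 and 427 CPM. Panobinostat library 1 lay among the vehicle libraries for Glb1 and below all of them for Man2b1. Library 5 was highest in both, and neither passed (edgeR adjusted p 0.12 and 0.25). Without library 1, Glb1, Man2b1 and the beta-mannosidase Manba were also called higher (edgeR adjusted p 0.014 to 0.04). Idua, Manba and Gla had log2 fold changes of 0.33, 0.22 and -0.03 with all libraries.

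None of the 3 tested sulfatases was called, with 0 at an unadjusted p under 0.05 and 0 in DESeq2 and limma-voom. Their log2 fold changes were 0.19 for Ids, 0.17 for Sgsh and 0.07 for Arsa, and their groups overlapped. Of the co-factors, progranulin (Grn), a secreted and lysosomal protein cut into granulins, was at 53.0, 57.9 and 50.8 CPM against 88.8, 77.3 and 62.4 CPM. It rose 1.41-fold without overlap (log2 0.50 ± 0.14 SE, edgeR adjusted p 0.042, 0.062 with library-size scaling). Psap was at 247, 228 and 234 CPM against 282, 267 and 263 CPM, a separation that did not pass (log2 0.19 ± 0.08 SE, edgeR adjusted p 0.14). Npc2, the soluble cholesterol carrier, overlapped between groups (log2 -0.22 ± 0.15 SE).

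Calls among the enzymes depended on single libraries, apart from Smpd1. Of the 10 calls, 8, 6 and 9 were lost when vehicle library 2, 3 or 4, in that order, was left out, with edgeR adjusted p of 0.056 to 0.16 for the lost genes. Without panobinostat library 5 the calls of Hexa, Grn, Gusb and Gaa were lost (0.061 to 0.10), and without library 6 those of Hexa, Gusb and Gaa (0.05 to 0.096).

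Among membrane proteins Lamp2 rose and Lamp1 was not called. Lamp2 (Entrez 16784, chrX:38399647-38456460, mm10), which codes for LAMP-2A, the receptor of chaperone-mediated autophagy, among other splice forms, was at 101, 110.4 and 105 CPM after vehicle and at 183, 209 and 182 CPM after panobinostat. The groups were far apart, a rise of 1.81-fold (log2 0.86 ± 0.09 SE, edgeR adjusted p 0.0041, and at most 0.033 without any one library). Gene counts do not separate its splice forms. Lamp1 (Entrez 16783, chr8:13159161-13175338, mm10), the other major glycoprotein of the membrane, was at 342, 337 and 331 CPM against 359, 322 and 329.7 CPM. Its log2 fold change was 0.00 ± 0.09 (SE, edgeR adjusted p 1.0). The difference between the folds of Lamp2 and Lamp1 was not tested.

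Cd63, a tetraspanin of late endosomes and secretory granules, had the largest fold change of the 51 tested members. Cd63 (Entrez 12512, chr10:128896231-128912822, mm10) had 7, 19 and 10 counts after vehicle and 83, 413 and 166 counts after panobinostat. On the scaled level this was 0.226, 0.674 and 0.343 CPM against 2.71, 16.7 and 5.23 CPM. All treated libraries were above all vehicle libraries, but the treated ones differed among themselves by more than any other called member. The fold was 19.7 (log2 4.30 ± 0.78 SE, edgeR adjusted p 0.013) and fell to 9.57 without panobinostat library 5. The sum of mast cell and basophil markers was also highest in that library, at 6697 CPM. It was 2882 and 4689 CPM in libraries 1 and 6 and 3184 to 3999 CPM after vehicle. Of 13 tested markers 1 was called higher, Gata2, and 0 lower, and Tpsab1 had a log2 fold change of -0.76. The part of these markers in the value of Cd63 was not tested.

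The cholesterol transporter Npc1 was at 36.3, 39.3 and 36.6 CPM against 50.1, 49.8 and 51.2 CPM. The libraries of each group were close together and the rise was 1.35-fold (log2 0.43 ± 0.08 SE, edgeR adjusted p 0.016). Cln3, a membrane protein whose loss causes a juvenile form of Batten disease, was at 32.2, 40.2 and 40.4 CPM against 48.1, 63.5 and 50.8 CPM, a rise of 1.44-fold (edgeR adjusted p 0.041, 0.071 with library-size scaling). Of its exon bases 13.2% overlap Apobr on the opposite strand. Mcoln1, the calcium channel TRPML1, was at 25.8, 24.0 and 21.5 CPM against 29.0, 29.9 and 29.0 CPM. Its groups did not overlap, but the log2 fold change of 0.30 ± 0.11 (SE) missed the threshold (edgeR adjusted p 0.081). Cd68, a macrophage glycoprotein, was low and overlapped, at 3.94, 4.01 and 4.63 CPM against 4.56, 5.61 and 5.08 CPM.

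Lamp2 kept its call without any one library. Cd63, Npc1 and Cln3 lost theirs without vehicle library 2 or 4, Npc1 and Cln3 without vehicle library 3, and Cln3 without panobinostat library 5 or 6, with edgeR adjusted p of 0.051 to 0.13 for the lost calls.

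In the proton pump, 3 of 5 genes of the membrane sector rose. Of the V0 genes, Atp6v0a1 (Entrez 11975), an isoform of the large a subunit that forms the proton channel with the c ring, was at 72.5, 59.6 and 52.3 CPM against 124, 111 and 84.1 CPM. It rose 1.73-fold (log2 0.79 ± 0.17 SE, edgeR adjusted p 0.022). Atp6v0d1, which couples the ring to the central stalk, was at 76.4, 81.6 and 77.5 CPM against 154, 131 and 111 CPM. It rose 1.68-fold (log2 0.75 ± 0.13 SE, edgeR adjusted p 0.011). Atp6v0b (Entrez 114143), a proteolipid of the ring, was at 136, 157 and 159 CPM against 239.9, 233 and 206 CPM, a rise of 1.5-fold (log2 0.59 ± 0.11 SE, edgeR adjusted p 0.013). In all of these the groups were apart, and panobinostat library 1 was highest and library 6 lowest.

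The main proteolipid, Atp6v0c, was at 154, 151 and 150.4 CPM against 209, 179 and 172 CPM. All treated libraries were higher, but its log2 fold change of 0.30 ± 0.10 (SE) had an adjusted p of 0.070 with edgeR and 0.034 with DESeq2. Atp6v0e, a small V0 subunit, was not called (log2 -0.03 ± 0.09 SE, edgeR adjusted p 0.82).

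In the V1 sector 2 of 8 genes rose, and the subunits that bind ATP were not called. Atp6v1a, the catalytic A subunit, was at 103, 101 and 101 CPM against 86.0, 113 and 104 CPM (log2 -0.01 ± 0.11 SE, edgeR adjusted p 0.94). Atp6v1b2, the B subunit, was within 102 to 106 CPM in all 6 libraries (log2 -0.02 ± 0.07 SE). Atp6v1d, of the central rotor, was at 38.1, 39.4 and 39.1 CPM against 52.5, 56.3 and 48.0 CPM, a rise of 1.34-fold (edgeR adjusted p 0.021). Atp6v1e1, of the peripheral stalk, was at 98.9, 98.9 and 103 CPM against 196, 127 and 131 CPM, a rise of 1.51-fold (edgeR adjusted p 0.046, 0.063 with library-size scaling, limma-voom 0.052). Library 1 stood above the other treated libraries for Atp6v1e1. Atp6v1c1, Atp6v1f, Atp6v1g1 and Atp6v1h, like the genes that rose, code for stalk or stator subunits. Their log2 fold changes were between -0.15 and 0.18, and none passed. For Atp6v1c1 and Atp6v1h every treated library lay below every vehicle library (log2 -0.10 and -0.15, edgeR adjusted p 0.37 and 0.24).

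Of the accessory proteins, which help to assemble the pump, 1 of 2 rose. Atp6ap1 was at 110.5, 117 and 115 CPM against 147, 161 and 139 CPM, a rise of 1.30-fold (log2 0.38 ± 0.09 SE, edgeR adjusted p 0.026, 0.056 with library-size scaling). Atp6ap2, the prorenin receptor, was at 57.9, 58.1 and 60.5 CPM against 49.0, 50.6 and 50.6 CPM. Every treated library was lower for Atp6ap2, but the call was missed (log2 -0.23 ± 0.08 SE, edgeR adjusted p 0.074), except with library-size scaling (0.025).

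**Figure D3:**
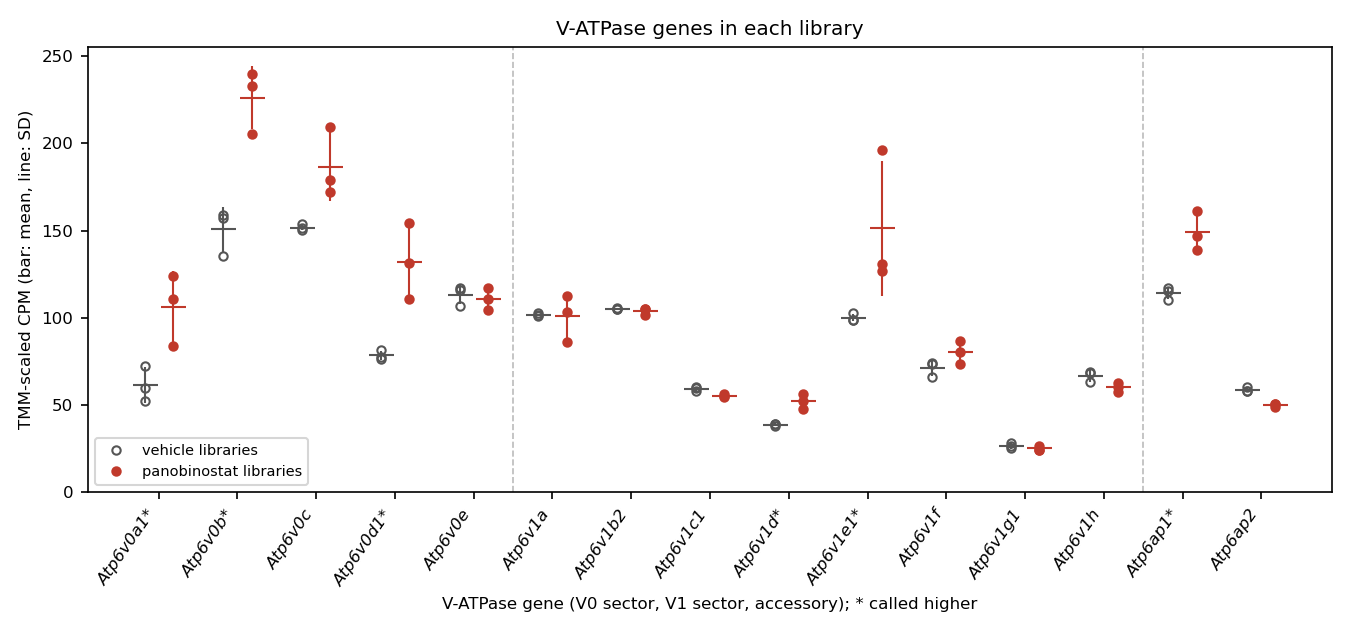
Level in TMM-scaled CPM (y axis, from 0) of the 15 V-ATPase genes (x axis, V0, V1 and accessory genes between dashed lines). Open points are vehicle and filled points panobinostat libraries, bars are group means and vertical lines the SD (n = 3); Atp6v0a1, Atp6v0b and Atp6v0d1 separate, whereas the groups of Atp6v1a and Atp6v1b2 overlap.

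The a subunit has several isoform genes, and their shares per length were set side by side, with no test. Atp6v0a1 made up 38.9%, 31.5% and 29.3% of the summed CPM per kb of the isoforms after vehicle and 50.6%, 40.4% and 35.8% after panobinostat. The groups overlapped, since vehicle library 2 lay above panobinostat library 6. Tcirg1, the a3 isoform, made up 34.9%, 38.2% and 39.6% against 26%, 29.0% and 31.2%, without overlap. Its own level was similar, at 53.2, 59.2 and 57.9 CPM against 52.2, 65.2 and 60.0 CPM (edgeR adjusted p 0.72). Atp6v0a2, named after its values were seen, took 23.4% to 33.1% in all libraries and was not called (log2 0.44, edgeR adjusted p 0.079), and Atp6v0a4 was at or near 0.

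No pump call held without each of the 6 libraries in turn. Leaving out vehicle library 2 or 4 ended all 6, and leaving out vehicle library 3 ended 4 (Atp6v0a1, Atp6v1d, Atp6v1e1 and Atp6ap1), with edgeR adjusted p of 0.053 to 0.14. Atp6v0a1, Atp6v1d and Atp6ap1 were lost without panobinostat library 5 (0.051 to 0.063), and Atp6v1e1 without library 6 (0.054).

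The treated libraries did not contribute evenly to the 19 rises. Library 1 was highest in 10 genes, library 5 in 8 and library 6 in 1, and library 6 was lowest in 13. Over the tested members, the median log2 ratio to the vehicle mean was 0.29 in library 1, 0.34 in library 5 and 0.22 in library 6. The leading genes differed: library 1 led in Ctsd, Smpd1, Tfe3 and Atp6v1e1, and library 5 led in Cd63, Hexa, Lipa and Lamp2.

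**Figure D4:**
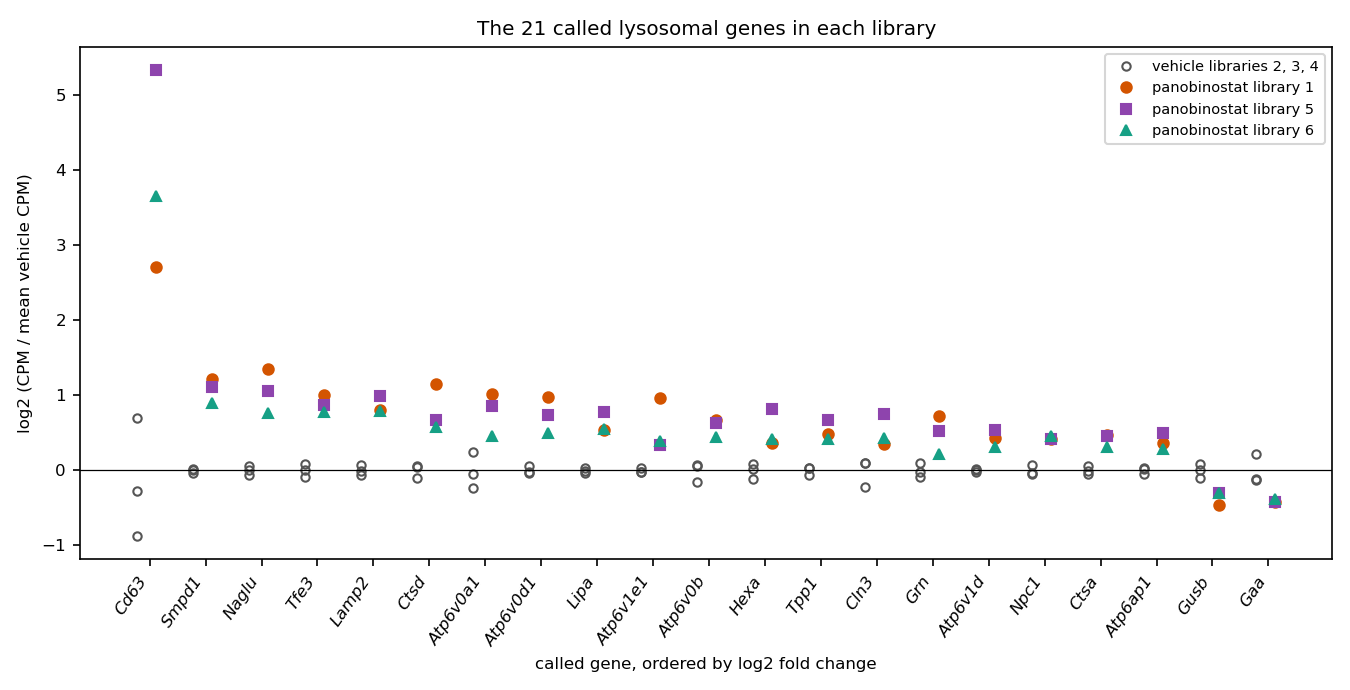
Log2 ratio of each library to the vehicle mean (y axis) for the 21 called members (x axis, ordered by fold change). Open circles are vehicle libraries and coloured symbols panobinostat libraries 1, 5 and 6; all treated symbols lie above the vehicle circles for the 19 higher genes and below them for Gusb and Gaa, and library 5 is highest for Cd63.

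Macrophages are rich in lysosomes, and marker lists of spleen cell types were read beside the members. The 18 macrophage markers, none of them at 0 in all libraries, summed to 35.7, 22.3 and 25.0 CPM after vehicle and 104, 62.3 and 34.1 CPM after panobinostat, and 3 of 15 tested rose. These were Hmox1, up to 21.3 CPM (4.58-fold, edgeR adjusted p 0.011), Vcam1, up to 12.1 CPM (3.52-fold, 0.041), and Fcgr1, up to 1.49 CPM (4.78-fold, 0.012). Each of these calls was lost without vehicle library 4 (edgeR adjusted p at least 0.056). All tested macrophage markers had a positive log2 fold change, from 0.20 for Cd5l to 2.26 for Fcgr1. Of those not called, Slc40a1, Axl and Csf1r reached 17.6, 14.2 and 9.03 CPM. C1qc, C1qa and Adgre1, also not called, reached 6.52, 4.79 and 1.66 CPM. Of these uncalled genes only C1qc did not overlap between the groups (log2 1.79, edgeR adjusted p 0.081). Neutrophil and monocyte markers (15 genes) summed to 14.5 to 24.2 CPM against 24.1 to 41.3 CPM, with a slight overlap. The largest part in each library was Ccr2, at 8.40 to 9.86 CPM against 13.3 to 28.8 CPM. Ccr2 and Cxcr2 were called higher. Ngp, Ltf and Lcn2 had log2 fold changes of -1.39, -1.06 and -1.20 and were not called. Dendritic cell markers (11 genes) summed to 84.0 to 97.3 CPM against 177 to 254 CPM, most of it from the interferon-inducible Bst2. Of 5 tested dendritic cell markers 3 rose and 0 fell. These were Bst2 (2.49-fold, edgeR adjusted p 0.0050), Zbtb46, up to 19.0 CPM (1.95-fold, 0.011), and Clec9a, up to 3.27 CPM (8.64-fold, 0.016). Another 7 of the 11 did not reach 1 CPM in any library. B cell, and T and NK cell, markers overlapped between the groups. The sums of macrophage and of erythroid markers were highest in panobinostat library 1. Of the called macrophage markers, Vcam1 was highest in library 1, but Hmox1 and Fcgr1 in library 5. Among the panobinostat libraries, the erythroid markers Hbb-y and Hbb-bh1 were highest in library 5 and the others in library 1. One of those others, Tfrc, did not rise, at 243 to 302 CPM after vehicle and 234 to 287 CPM after panobinostat. Without panobinostat library 1, 23 members were called higher, and 16.8% of all genes. Erythroid markers, of which 7 of 13 rose, summed to 7889.7 to 8545 CPM after vehicle and at least 25121 CPM after panobinostat. The part of these markers in the member values was not tested.

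Beyond the 54 genes, 105 others of lysosome biology were read in the same way, of which 88 were tested, 13 rose (14.8%) and 2 fell. Over all tested genes 11.3% rose and 9.72% fell, against 14.8% and 2.27% in this pool of unlike lists. By list, 26.1% of the other enzymes and activators and 23.8% of the other membrane proteins rose. The share was 5.56% of the genes that tag and sort enzymes, 4.35% of those that sense nutrients, and 0 of 3 other pump isoforms. Of 23 other enzymes and activators 6 rose and 1 fell, with a median log2 fold change of 0.31. Legumain (Lgmn), an asparaginyl endopeptidase that matures cathepsins, was at 36.5, 63.7 and 57.4 CPM against 149, 136 and 132 CPM. It rose 2.65-fold (edgeR adjusted p 0.0066). The call of Lgmn held without any one library. Ctso rose by 0.58 on the log2 scale (edgeR adjusted p 0.022), a call lost without any vehicle library or panobinostat library 5 (0.05 to 0.10).

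Of 21 other membrane proteins 5 rose and 1 fell. Laptm5, a transporter-like protein of blood cells, was the most abundant of those named here per length, at a vehicle mean of 956 CPM per kb. It was at 2119, 3025 and 2310 CPM against 4859, 6949 and 5054 CPM. The rise was 2.26-fold (edgeR adjusted p 0.0098). The cystine exporter Ctns and Laptm4a rose by 0.68 and 0.63 on the log2 scale (edgeR adjusted p 0.0073 and 0.0098). Laptm5 and Laptm4a were not called without vehicle library 2 or 4 (0.053 to 0.062).

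Among genes that tag and sort lysosomal enzymes or sense nutrients at the lysosome, the shares that rose were 5.56% and 4.35%. Over all tested genes it was 11.3%, and each share here rests on 1 gene. Of 18 genes of mannose 6-phosphate tagging and sorting 1 rose, Ap3s1 of the AP-3 coat (log2 0.59, edgeR adjusted p 0.014), and the median log2 fold change was 0.03. Of 23 tested genes of nutrient sensing and the MiT family 1 rose, Lamtor4 of the Ragulator scaffold (log2 0.40, edgeR adjusted p 0.043, 0.099 with library-size scaling), and the median was 0.00. Ap3s1 was not called without any one vehicle library, and Lamtor4 was called only with all libraries or without panobinostat library 1. The difference between these lists and the 54 members was not tested.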

How the data were processed

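The authors deposited 1 table of whole-number read counts per gene, with genes given by Entrez ID and 6 columns of libraries, 3 per group. Per the labels' protocols, total RNA of the sorted spleen cells was extracted with Trizol and spin columns and made into Illumina TruSeq RNA libraries. Per the submitters' processing notes, the tools included HISAT2 2.1.0, featureCounts (Subread 2.0.0), FastQC 0.11.6, cutadapt 2.1, limma and bcl2fastq 2.17.1.14, and the build was mm10. The sources used here do not give the annotation, the strand setting or the treatment of multimapping reads. Without strand, reads of overlapping genes cannot be told apart: 16 members share exon bases with another gene in GENCODE, among them the called genes Ctsa, Ctsd, Npc1, Cln3 and Atp6v0b.

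Columns were tied to groups by their names, which carry no replicate number of the titles. Further numbers in these names have no stated meaning, so no batch term was fitted. IDs were named from RefSeq (25275 genes) or GENCODE (18), and 1886 stayed unnamed. The members and gene lists were chosen with earlier results of these data known. Genes were filtered with filterByExpr, scaled by TMM and tested with edgeR 4.0.16 (R 4.3.3, quasi-likelihood F test) in a model of treatment alone. P-values were adjusted by Benjamini-Hochberg over the 12916 genes tested, and genes were called at an adjusted p under 0.05. The common biological coefficient of variation was 0.195. Standard errors were obtained from the log2 fold change and its F statistic (absolute change over root F). Levels are CPM after TMM scaling, and per kilobase they use the union of GENCODE exons. No pair of libraries was a duplicate (chi-square per degree of freedom at least 14.0). An exact permutation test of 3 against 3 libraries cannot give a p under 0.1. The fit was tested on simulated data. Called members, with Ctsd, Lamp1, Mcoln1, Tfeb, Tfe3 and Atp6v1a, are given in every library. From each list outside the members up to 3 called genes are named, and always Mitf, Tfec and Tcirg1; other genes of this rule are not reported here. Other members given per library (such as Ctsb, Ctss, Glb1, Man2b1, Asah1, Psap, Cd68, Atp6v0c and Atp6ap2) and the single cell markers were chosen after their values were seen. Alternatives were DESeq2 1.42.0, limma-voom (limma 3.58.1), RLE and library-size scaling, 2 other filters, robust shrinkage and leaving out each library.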

Additional observations from a re-analysis of the deposited data

How the results depend on the processing

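With RLE scaling, both other filters, DESeq2 and robust shrinkage, all 21 member calls were kept. DESeq2 called 20 members higher and 2 lower, and limma-voom 18 higher and 1 lower, the 1 lower being an interior enzyme, since it lost Gaa and Atp6v1e1. Scaling by library size alone moved the median of all genes from 0.01 to -0.10 and the share of higher calls among all calls from 53.8% to 35.5%. It called 14 members higher and 3 lower, 1 of them a pump gene (Atp6ap2), with a member median of 0.20 (log2). It called 2065 of all genes lower and 4 pathway genes outside the members lower, and lost Hexa, Grn, Cln3, Atp6v1e1 and Atp6ap1. Outside the members, DESeq2 called 20 pathway genes higher and RLE scaling 1 lower. Leaving out 1 library gave 3 to 23 members higher and 0 to 2 lower. By class it gave 1 to 11 interior enzymes higher and 0 to 2 lower, 1 to 4 membrane proteins higher and 0 lower, and 0 to 6 pump genes higher and 0 lower. The counts over all tested genes moved with them, from 303 to 2192 higher and 135 to 1864 lower, and those of pathway genes outside the members from 3 to 23 higher and 0 to 4 lower. The member median stayed between 0.22 and 0.36. With vehicle library 2, 3 or 4 left out, 4, 9 and 3 members were higher (3.28%, 5.64% and 2.29% of all genes). They were 23 (16.8%), 13 (7.58%) and 16 (8.82%) without panobinostat library 1, 5 and 6. Every one of these fits has fewer residual degrees of freedom than the main fit. Why the counts rose in some and fell in others was not tested. Smpd1, Lamp2 and Tfe3 were called in every one of these fits, and no member reversed its sign past the threshold. No paired analysis was possible because the count columns carry no replicate numbers matching those of the titles. Depth limits Ctsl, Arsb and Scarb2, which had too few counts to test.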
